A study of Mus musculus with 11 samples.

Results

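The 9 genes followed here mark or maintain the eye field and retinal progenitors (Rax, Pax6, Lhx2, Sox2, Sox9, Mab21l1, Mab21l2, Meis1 and Meis2). They were chosen by name from the 13498 genes of the deposited count table, with earlier results of these data known. All 9 passed the filter on low counts, as did 13292 genes in all. Mab21l1 and Mab21l2 encode proteins of the Mab21 family, which are not known as DNA-binding transcription factors, so the genes are called eye field and progenitor regulators below.

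RNA was sequenced from mouse retinas of the NMRI strain at E13.5 (days of embryonic development), after tamoxifen (0.15 mL at 20 mg/mL) was given to pregnant dams at E10.5 and E11.5. DKO embryos were Six3F/F; CAGGCre-ERTM; Six6–/–, with 3 libraries. Six3KO embryos were Six3F/F; CAGGCre-ERTM; Six6+/+, with 3 libraries. Six6KO embryos were Six3F/F; Six6–/– with no Cre, with 2 libraries, and WT embryos were Six3F/F; Six6+/+ with no Cre, with 3 libraries. All 4 groups therefore carried the floxed Six3 allele. Six6 was inactivated in the germline, whereas Six3 was deleted by a Cre that tamoxifen activates and that a broadly active promoter drives. Cre was present only in DKO and Six3KO embryos, so that loss of Six3 and the presence of Cre cannot be told apart in comparisons with WT or Six6KO. Each library came from a pair of retinas, and the submitters dropped another Six6KO library for its duplicate reads, per the design text.

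The vertebrate eye field is set up by homeodomain and Sox factors, among which Rax, Pax6, Lhx2, Six3 and Six6 act in a mutually dependent network. In the optic cup most of these genes stay on in dividing retinal progenitors, where Pax6 supports multipotency, Sox2 neural competence and Lhx2 continued progenitor growth. Meis1 and Meis2 are TALE homeodomain proteins that act with Pbx partners and, in the mouse lens, upstream of Pax6.

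Libraries held 11965016 to 12659540 reads in DKO, 9786661 to 16403191 in Six3KO, 8867708 to 9166054 in Six6KO and 7807744 to 12505379 in WT. Values are CPM, that is, read counts scaled to a common library size, here by TMM. Six3 averaged 70.5 ± 23.9 CPM in DKO and 60.0 ± 25.8 CPM in Six3KO, against 229 ± 67.8 CPM in WT (SD, n = 3 each). Six6 averaged 69.5 ± 26.3 CPM in DKO, against 281 ± 57.6 CPM in WT (SD, n = 3 each), and was 131 and 76.8 CPM in the 2 Six6KO libraries. Reads of both genes thus remained in mutant libraries. The libraries also differed in tissue around the retina: the summed level of 12 periocular mesenchyme markers was 50.6 to 122 CPM in DKO, 397 to 3959 CPM in Six3KO, 1646 to 2372 CPM in Six6KO and 384 to 2102 CPM in WT, and at most 1 of the 12 was at 0 in any library. The sum of 10 lens markers was 18932 and 15025 CPM in Six3KO libraries rh012 and rh026 and 8258 CPM in Six6KO library rh020, against at most 1007 CPM in each of the other 8.

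Start regions of 3 members are shown first, as the sequence around a RefSeq start site of each. RefSeq windows (GRCm38.p6, 250 bases before to 50 bases after a start site) were found for 6 of the 9 members. Windows are given for Pax6 (the more upstream of its 2) and Meis1, whose levels were the most alike of the members, and for Sox2, whose groups overlapped throughout. Part of the Pax6 and Meis1 windows lies within those genes as GENCODE places them. The Sox2 window ends at base 34650044, before the GENCODE start of Sox2 at 34650405. Distances below are from the RefSeq start of each window. Capitals mark matches, on either strand, to TAATTA (LIM and paired-type homeodomain), TGATAC (Six3 and Six6 family), TGACAG (Meis) and ACAAT (Sox). Those motifs occur in 5.3%, 5.5%, 19.2% and 31.0% of 32851 RefSeq promoters of the same length, in that order.
Pax6 (chr2:105668646-105668945, plus strand): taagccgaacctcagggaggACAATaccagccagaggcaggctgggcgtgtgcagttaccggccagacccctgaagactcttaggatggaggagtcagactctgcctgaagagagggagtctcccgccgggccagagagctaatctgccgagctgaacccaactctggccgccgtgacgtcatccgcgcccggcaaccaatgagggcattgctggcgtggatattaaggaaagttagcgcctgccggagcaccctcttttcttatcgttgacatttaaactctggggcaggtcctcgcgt
Meis1 (chr11:19018920-19019219, minus strand): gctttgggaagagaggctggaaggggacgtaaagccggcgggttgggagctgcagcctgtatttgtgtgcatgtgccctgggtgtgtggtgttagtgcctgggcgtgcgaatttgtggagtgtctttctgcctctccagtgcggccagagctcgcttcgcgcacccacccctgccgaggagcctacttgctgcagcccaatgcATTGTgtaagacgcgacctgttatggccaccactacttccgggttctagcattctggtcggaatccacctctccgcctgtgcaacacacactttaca
Sox2 (chr3:34649745-34650044, plus strand): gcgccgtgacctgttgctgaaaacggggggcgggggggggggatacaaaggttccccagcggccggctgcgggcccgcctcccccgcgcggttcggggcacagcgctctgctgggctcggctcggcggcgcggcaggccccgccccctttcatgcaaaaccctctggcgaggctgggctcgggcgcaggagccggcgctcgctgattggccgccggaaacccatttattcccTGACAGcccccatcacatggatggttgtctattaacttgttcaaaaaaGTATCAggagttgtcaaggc
The Mab21l2 window (chr3:86548234-86548533) held none of the 4 motifs. It is not printed, since the GENCODE start of that gene lies further upstream and the whole window falls within its single exon there. The Pax6 window held the Sox letters 230 bases before the start. The Meis1 window held the Sox letters in reverse, 47 bases before the start. The Sox2 window held the Meis letters 18 bases before the start and the TGATAC letters in reverse 30 bases after it. Each match is a description of letters in a window and not a bound site.

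Mab21l2, a Mab21 family gene required for eye and lens formation in mouse, was the only one of the 9 members to pass the test in DKO against WT. It stood at 555, 551 and 465 CPM in the DKO libraries, against 192, 236 and 218 CPM in the WT libraries. Values were 217, 277 and 210 CPM in Six3KO and 259 and 190 CPM in Six6KO. All 3 DKO libraries lay above all 8 others, and the other 3 groups overlapped with one another. In DKO against WT the log2 fold change was 1.28 ± 0.16 (SE), with an adjusted p of 0.00848 (edgeR quasi-likelihood test, Benjamini-Hochberg adjustment over all genes). Of all genes tested, 0.655% were called higher in that comparison. It was 1.16 ± 0.16 in DKO against Six3KO (adjusted p = 0.0155 by edgeR; background 0.331% called higher) and 1.22 ± 0.18 in DKO against Six6KO (adjusted p = 0.0336 by edgeR; background 0.166%). These 3 comparisons share the DKO libraries. Neither single mutant was called against WT: the log2 fold change was 0.12 ± 0.16 in Six3KO and 0.06 ± 0.18 in Six6KO. The interaction, DKO minus Six3KO minus Six6KO plus WT, was 1.10 ± 0.24 on the log2 scale, with an unadjusted p of 0.00103 and an adjusted p of 0.320 in the edgeR model, and 0% of all genes passed that test. Without DKO library rh010 the difference from WT was 1.24 on the log2 scale with an adjusted p of 0.0550 (edgeR). Over 20 alternatives the call was lost in 6 against Six3KO and in 10 against Six6KO. The estimates over those alternatives ran from 0.87 to 1.28 against Six3KO and from 0.86 to 1.46 against Six6KO. The fit without the 3 lens-rich libraries left only rh006 in Six3KO and rh007 in Six6KO, so it held no spread within those groups.

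In bulk tissue, a larger share of cells that express a gene and more of its RNA per cell cannot be told apart. With the mesenchyme score as a covariate, Mab21l2 remained at 1.01 ± 0.20 on the log2 scale in DKO against WT (adjusted p = 0.0483 by edgeR). The WT library with the lowest mesenchyme sum, rh023 at 384 CPM, had the highest Mab21l2 level of the WT libraries, 236 CPM. Six3KO library rh012 likewise had the lowest sum of its group, 397 CPM, and the highest Mab21l2 level, 277 CPM. The order was opposite in Six6KO. There rh007 had 2372 CPM of mesenchyme markers and 259 CPM of Mab21l2, against 1646 and 190 CPM in rh020. No WT library reached the DKO mesenchyme sums of 50.6 to 122 CPM, and the part of mesenchyme in the difference was not tested beyond that fit. The mesenchyme scores were -4.09 to -2.95 in DKO, below all other libraries, of which WT library rh023 was lowest at -2.44. Values adjusted for this score, here and for other genes below, thus extend beyond the range of the other groups.

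Mab21l2 (GRCm38, chr3:86545581-86548629, minus strand, 1 exon) lies within the body of Lrba, which is annotated on the opposite strand, and 1097 bp of its exon (35.98%) is shared with exons of Lrba. No source used here states whether counting was by strand, and reads of Mab21l2 and Lrba may therefore not be separable. Lrba averaged 213 ± 20.6 CPM in DKO and 158 ± 8.51 CPM in WT (SD, n = 3 each), a log2 fold change of 0.44 ± 0.10 with an adjusted p of 0.0816 (edgeR). The ratio of Mab21l2 to Lrba was 2.42 to 2.49 in DKO, against 1.25 to 1.78 in all other libraries, without overlap.

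Mab21l1, its close relative that is needed for lens and iris formation in mouse, did not pass the main edgeR test in any comparison. In DKO against Six3KO it passed in 1 of 20 alternatives. It had 171, 151 and 139 CPM in DKO, 124, 119 and 96.1 CPM in Six3KO, 117 and 126 CPM in Six6KO, and 128, 140 and 132 CPM in WT. Every Six3KO and Six6KO library lay below every WT library, and DKO overlapped with WT. The gap was small in Six6KO, whose higher library was at 126 CPM against 128 CPM in the lowest WT library. The share of all genes with such a separation below WT was not counted. Against WT the log2 fold change of Mab21l1 was 0.20 ± 0.12 in DKO, -0.24 ± 0.12 in Six3KO and -0.13 ± 0.13 in Six6KO. Mab21l1 lies within Nbea on the opposite strand and shares 981 bp of exon (39.37%) with it. Nbea had a log2 fold change of -0.01 ± 0.14 in DKO against WT. The ratio of Mab21l2 to Mab21l1 was 3.24, 3.65 and 3.35 in DKO, 1.75, 2.33 and 2.18 in Six3KO, 2.21 and 1.50 in Six6KO, and 1.50, 1.68 and 1.65 in WT. The DKO ratios exceeded the WT ratios by 1.08 on the log2 scale (two-sided exact permutation p = 0.1, the smallest that 3 against 3 allows; adjusted 0.3 over 6 tests). The Six3KO ratios were also all above the WT ratios, by 0.36 on the log2 scale, with the same exact permutation p of 0.1 (two-sided, adjusted 0.3). The genes shared 2 25-base stretches of exon and none of 50 bases.

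**Figure D1:**
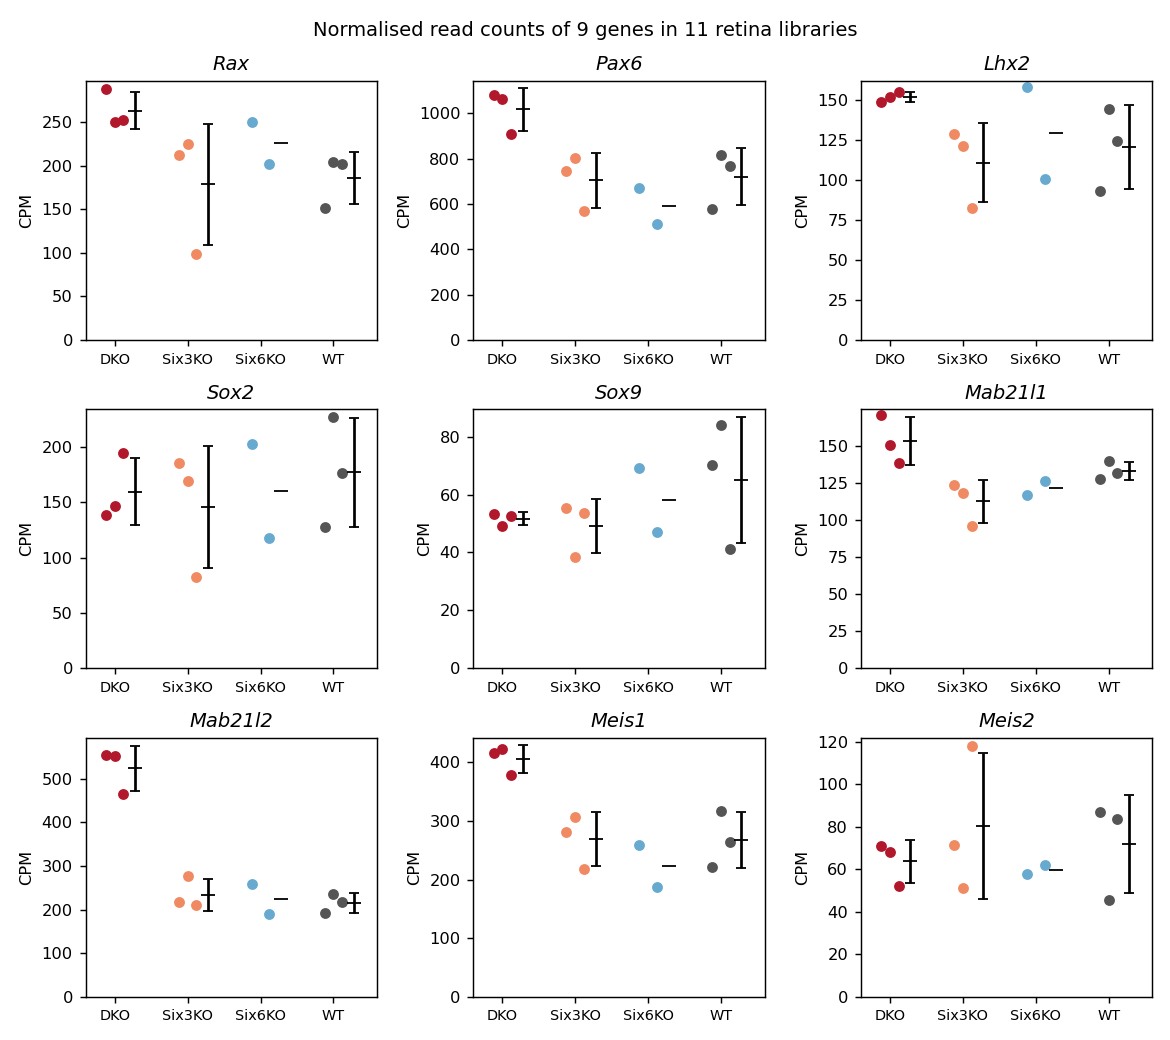
CPM (TMM-scaled, axes start at 0) of the 9 genes in each library of the DKO, Six3KO, Six6KO and WT groups; points are libraries, and bars are the mean and 1 SD (mean only for the 2 Six6KO libraries). Mab21l2 stands at 465 to 555 CPM in DKO and at 190 to 277 CPM in all other libraries.

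Pax6, the paired-domain factor that maintains multipotent retinal progenitors, had 1079, 1064 and 907 CPM in DKO, 744, 801 and 567 CPM in Six3KO, 672 and 511 CPM in Six6KO, and 576, 816 and 769 CPM in WT. Every DKO library lay above every library of the other groups. The log2 fold change in DKO was 0.50 ± 0.18 against WT, 0.53 ± 0.18 against Six3KO and 0.78 ± 0.21 against Six6KO, with adjusted p of 0.262, 0.241 and 0.154 (edgeR), so none of them passed. Meis1 had 416, 423 and 379 CPM in DKO, 282, 307 and 219 CPM in Six3KO, 260 and 187 CPM in Six6KO, and 222, 317 and 265 CPM in WT. Its DKO libraries also lay above all others. In DKO against WT it had a log2 fold change of 0.60 ± 0.18 (adjusted p = 0.151 by edgeR), and DESeq2 called it at 0.60 with an adjusted p of 0.0211. With the mesenchyme score as a covariate the DKO estimate was 0.17 ± 0.22 for Pax6 and 0.25 ± 0.20 for Meis1. The part of mesenchyme in these differences was not tested beyond that fit.

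Over the 11 libraries, Pax6 and Meis1 had a Pearson correlation of log2 CPM of 0.986 and a Spearman rho of 0.982, and each was among the 2 genes most like the other out of 11196 searched. These libraries share group, tissue makeup and depth, and the values are given as a description. The ratio of Meis1 to Pax6 spanned 0.345 to 0.418 over all 11 libraries. Pcdh19, a protocadherin, and St8sia1, a sialyltransferase, were the other genes most like Pax6 (r = 0.981) and Meis1 (r = 0.984). The genes most like the others were Maf1 and Ccdc177 for Rax (r = 0.965 and 0.962), Dtx4 and Tle4 for Lhx2 (0.955 and 0.953), Pitpnm1 and Usp37 for Sox2 (0.966 and 0.963), and Rin2 and Hlf for Meis2 (0.955 and 0.925). They were Rragb and Plch1 for Mab21l1 (0.933 and 0.891), and Clcc1 and Fam104a for Sox9 (0.843 and 0.785), so that Sox9 had the loosest match of the 9. The gene most like Mab21l2 was Rmst, a long noncoding RNA (r = 0.987). In DKO against WT, Rmst was at 1.88 ± 0.26 on the log2 scale (adjusted p = 0.0144 by edgeR, background 0.655% called higher). Rmst was picked for its likeness to Mab21l2 over these same libraries, so its value was not independent of the Mab21l2 result.

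Meis2, the second Meis gene, did not follow Meis1. It had 71.0, 68.0 and 52.0 CPM in DKO, 71.3, 51.2 and 118 CPM in Six3KO, 57.8 and 61.8 CPM in Six6KO, and 86.9, 45.3 and 83.6 CPM in WT. The groups overlapped, and the highest value was in Six3KO library rh026, which also had the highest mesenchyme sum, 3959 CPM. The lowest was in WT library rh023, at 384 CPM of mesenchyme markers. The DKO libraries had lower mesenchyme sums still, 50.6 to 122 CPM, but Meis2 above that WT library. The log2 fold change in DKO against WT was -0.18 ± 0.32, but it was 0.78 ± 0.23 with the mesenchyme score as a covariate and 0.10 ± 0.15 with the pigment epithelium score, and neither passed. The pair shared 8 25-base stretches of exon and none of 50 bases. The log2 ratio of Meis2 to Meis1 differed by -0.74, DKO minus WT (exact permutation p = 0.3, two-sided), with overlap.

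**Figure D2:**
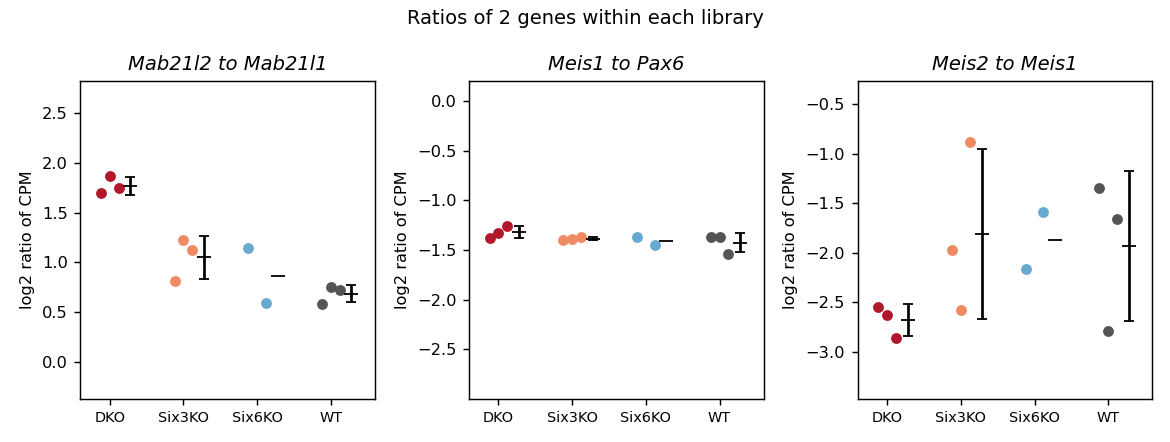
Log2 ratio of the CPM of 2 genes within each library of the DKO, Six3KO, Six6KO and WT groups, all panels spanning the same number of log2 units; points are libraries and bars are the mean and 1 SD (mean only for Six6KO). Mab21l2 to Mab21l1 is 3.24 to 3.65-fold in DKO against 1.50 to 1.68-fold in WT, whereas Meis1 to Pax6 stays between 0.345 and 0.418-fold throughout.

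Rax, the homeodomain factor needed for the first outgrowth of the optic vesicle, had 288, 250 and 252 CPM in DKO, 212, 225 and 98.8 CPM in Six3KO, 250 and 203 CPM in Six6KO, and 151, 205 and 202 CPM in WT. DKO lay above WT and Six3KO in all libraries, and Six6KO library rh007 came close to the lowest DKO library. The log2 fold change in DKO against WT was 0.50 ± 0.27 (adjusted p = 0.506 by edgeR), and it was -0.041 ± 0.32 with the mesenchyme score as a covariate. Rax shares 1604 bp of exon (27.44%) with an antisense gene, Raxos1. Lhx2, a LIM homeodomain factor, had 149, 152 and 155 CPM in DKO, 129, 122 and 82.6 CPM in Six3KO, 158 and 101 CPM in Six6KO, and 92.9, 145 and 124 CPM in WT. DKO lay above all WT and Six3KO libraries and below Six6KO library rh007. In DKO against WT its log2 fold change was 0.33 ± 0.22 (adjusted p = 0.623 by edgeR), and with the mesenchyme covariate it was -0.040 ± 0.27.

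Sox2, an HMG-box factor of neural progenitors, had 139, 146 and 194 CPM in DKO, 185, 169 and 82.9 CPM in Six3KO, 202 and 117 CPM in Six6KO, and 128, 227 and 177 CPM in WT. The groups overlapped throughout, with a log2 fold change of -0.15 ± 0.33 in DKO against WT. The estimate changed sign, to 0.069, without WT library rh023. Sox9, which marks progenitors and later Müller glia, had 53.2, 49.2 and 52.6 CPM in DKO, 55.4, 38.5 and 53.7 CPM in Six3KO, 69.2 and 47.1 CPM in Six6KO, and 70.2, 83.9 and 41.2 CPM in WT. Its log2 fold change was -0.33 ± 0.25 in DKO, -0.40 ± 0.25 in Six3KO and -0.17 ± 0.28 in Six6KO, each against WT, and none passed.

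Counted together, 5 of the 9 members (Rax, Pax6, Lhx2, Mab21l2 and Meis1) had every DKO library above every WT library, against a background of 9.03% of all genes tested. Against Six3KO the count was 6 of 9 (background 13.4%), and against Six6KO it was 5 of 9 (background 16.8%). The count against Six6KO includes Rax, at 250.041 CPM in DKO library rh011 and 250.036 CPM in Six6KO library rh007, in practice a tie. The median log2 fold change of the members was 0.33 in DKO against WT, beside -0.0036 over all genes. The members were chosen with earlier results of these data known. The 5 above WT also varied together, with Pearson r of 0.635 to 0.986 over the 11 libraries. The counts are thus a description, and the members are not separate observations. In Six3KO against WT no member was called (background 0.00752%), and the estimates ran from -0.40 for Sox9 to 0.15 for Meis2. In Six6KO against WT no member was called either (background 0%, with 518 genes at an unadjusted p under 0.05 and 2 called by DESeq2), and the estimates ran from -0.28 for Pax6 to 0.28 for Rax.

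**Figure D3:**
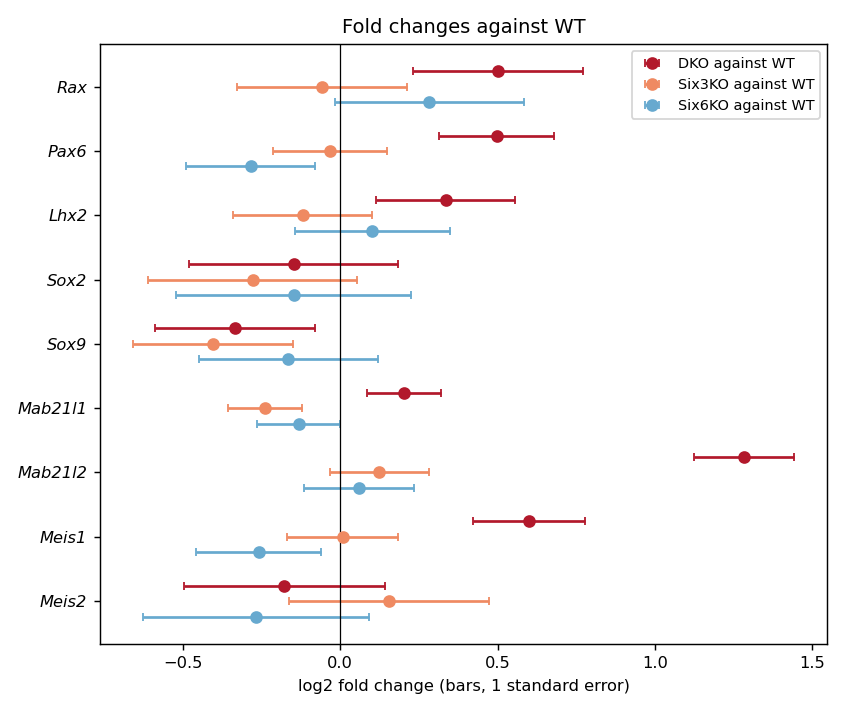
Log2 fold change against WT (horizontal axis) of the 9 genes in DKO, Six3KO and Six6KO, with bars of 1 standard error derived from the F statistic of the edgeR test. The DKO estimate for Mab21l2, at 1.28, stands apart from its Six3KO and Six6KO estimates, at 0.12 and 0.06.

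Per kilobase of exon, the levels in WT ran from Sox2 at 86.1 CPM per kb through Mab21l2 at 70.6, Pax6 at 61.6, Mab21l1 at 53.5, Rax at 31.8, Lhx2 at 27.5, Meis1 at 25.4 and Sox9 at 15.7 to Meis2 at 5.97 CPM per kb. Neighbours in that order overlapped between libraries except Mab21l1 over Rax, Meis1 over Sox9 and Sox9 over Meis2. In DKO, Mab21l2 came first at 172 CPM per kb, followed by Pax6 at 86.9 and Sox2 at 77.7 CPM per kb. Mab21l2 was thereby at percentile 99.3 of 13015 genes in DKO and 97.0 in WT.

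**Figure D4:**
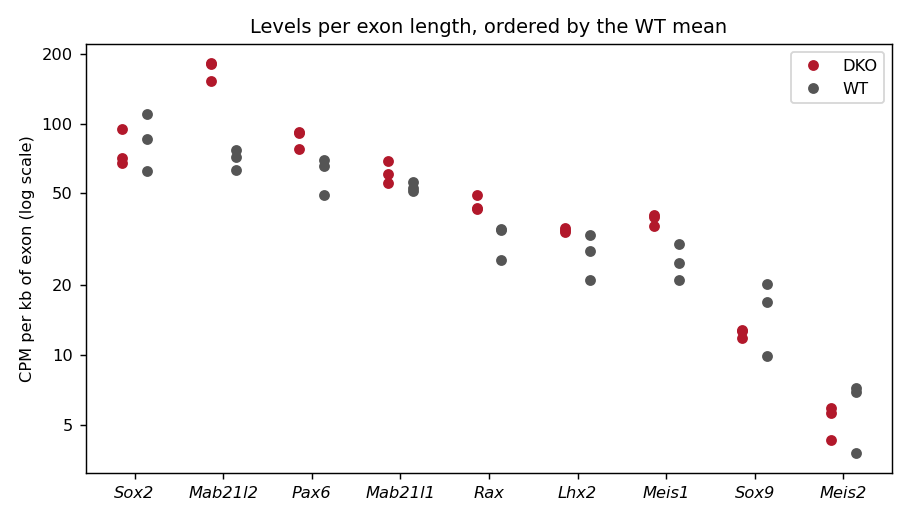
CPM per kb of exon (log axis) of the 9 genes in DKO and WT libraries, one point per library, ordered by the WT mean. Exon length includes bases shared with genes on the opposite strand. Mab21l2 is at 153 to 182 CPM per kb in DKO against 62.9 to 77.3 CPM per kb in WT.

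Beside the members, 11 other genes of the eye field and progenitor program were examined. Of 11 tested, 1 fell in DKO against WT (Six6, by 2.01 ± 0.36 on the log2 scale, adjusted p = 0.0342 by edgeR) and none rose. The estimates of all 11 were below 0, with a median of -0.99. Six6 and Six3 are among the 11 and are the genes inactivated in DKO. The direction of their estimates was thus set by the design. Of all genes tested, 0.639% were called lower and 50.8% had an estimate below 0, and the Six6 call was lost in 6 of 20 alternatives. Ccnd1, the D-type cyclin of progenitors, had a log2 fold change of -2.27 ± 0.53 (adjusted p = 0.0840 by edgeR), and Six3 of -1.70 ± 0.43 (adjusted p = 0.106 by edgeR). The estimates were also below 0 for all 11 in Six3KO (median -0.29) and for 10 in Six6KO (median -0.19), each against WT. The background below 0 was 51.4% and 48.5% of all genes. Relative to the WT mean, the mean log2 level of the 11 was -1.44 to -0.58 in DKO and -1.27 to -0.12 in Six3KO. It was -0.77 to 0.075 in Six6KO and -0.32 to 0.33 in WT, so DKO overlapped with both single mutants. The ratios of Mab21l2 to Lrba and of Meis1 to Pax6 given above were chosen after their values were seen.

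**Figure D5:**
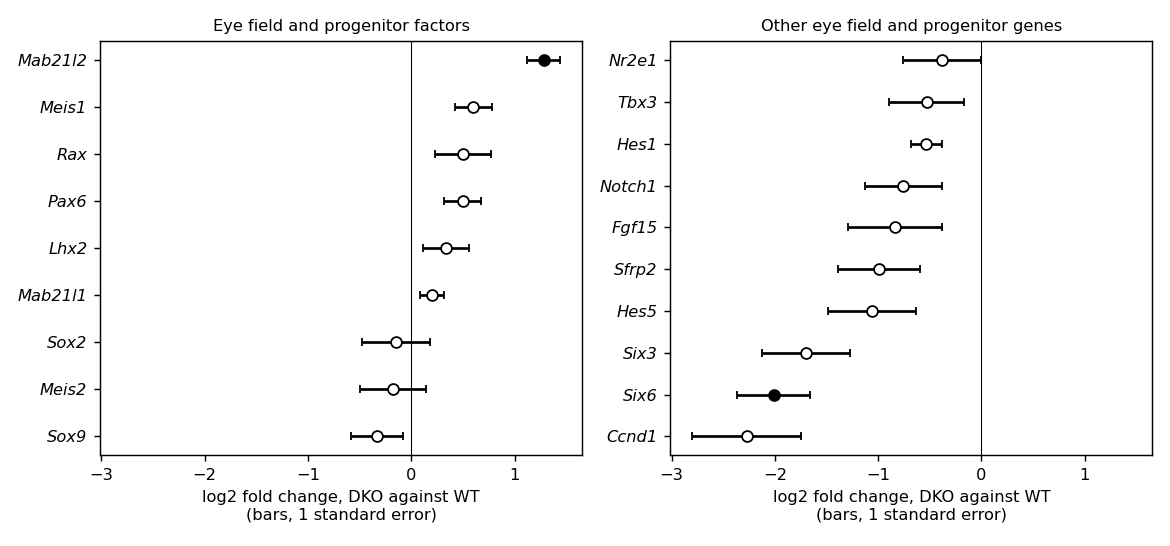
Log2 fold change in DKO against WT of the 9 genes (left) and of 10 of the 11 other eye field and progenitor genes (right), with bars of 1 standard error; filled points had an adjusted p under 0.05. Mab21l2 is at 1.28 on the left, and on the right the 10 estimates shown lie below 0, down to -2.27 for Ccnd1. Six3 and Six6, on the right, are the genes inactivated in DKO.

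In the lists that follow, 1.29% of all genes tested is the share called in either direction in DKO against WT. Of the 7 Pbx and TALE partners of Meis, none was called in DKO against WT, and the log2 fold changes of Pknox2 and Pbx3 were 0.62 and -0.21. Of 8 tested LIM cofactors and relatives of Lhx2, 1 rose: Lmo3, a LIM-only protein, averaged 21.3 ± 7.01 CPM in DKO and 1.40 ± 0.779 CPM in WT (SD, n = 3 each), a log2 fold change of 3.88 ± 0.44 (adjusted p = 0.00497 by edgeR). Lmo2 and Lmo1 were at -1.29 and -1.08 and did not pass. Of 7 tested relatives of the Sox, Pax and Mab21 members, 1 was lower: Sox8 fell by 2.53 ± 0.46 on the log2 scale (adjusted p = 0.0381 by edgeR), a call lost in 10 of 20 alternatives. Sox3 was at 1.23 ± 0.26 (adjusted p = 0.0554 by edgeR). Pax3, a neural crest and dorsal neural tube factor, had 3 reads in all over the DKO libraries against 260 over the WT libraries, and the groups overlapped. Its fitted log2 value of -6.22 ± 2.48 did not pass (adjusted p = 0.317 by edgeR) and was -0.52 without WT library rh016. Of 10 ciliary margin genes, Zic1 rose by 2.08 ± 0.20 (adjusted p = 0.00257 by edgeR), Cdo1 fell by 1.93 ± 0.39 (adjusted p = 0.0496 by edgeR; lost in 14 of 20 alternatives, with estimates to -1.02), and the other 8 were not called, Zic2 among them at 1.12 ± 0.27. Of 5 genes at the members' loci, none was called. Besides Lrba and Nbea these were Pax6os1 at 0.09 and Sox2ot at -0.02, which overlap Pax6 and Sox2 without shared exon bases, and Elp4 at 0.33, which does not overlap a member.

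Of the lists for other tissues and cell types, 3 held 1 called gene each in DKO against WT. Among 12 mesenchyme genes, Col1a1 fell by 4.51 ± 0.86 on the log2 scale (adjusted p = 0.0475 by edgeR; lost in 9 of 20 alternatives, with estimates to -2.72), among 10 ganglion cell genes Rbpms fell by 1.78 ± 0.17 (adjusted p = 0.00243 by edgeR), and among 6 surface ectoderm genes Grhl3 fell by 2.81 ± 0.44 (adjusted p = 0.0236 by edgeR; lost in 8 of 20 alternatives). None of 10 lens, 8 pigment epithelium, 6 blood vessel and 8 amacrine and horizontal cell genes was called. The mean log2 level of the amacrine and horizontal cell genes, relative to the WT mean, was -2.35, -2.15 and -1.20 in DKO, below the lowest of the other 8 libraries at -0.91. That of the ciliary margin genes was 0.49 to 0.95 in DKO, against -0.91 to 0.47 in WT, with Six3KO library rh026 at 0.80 within the DKO range. By summed level, DKO and WT overlapped for both lists. The amacrine and horizontal cell genes summed to 472 to 579 CPM in DKO and 454 to 825 CPM in WT. The ciliary margin genes summed to 1311 to 2341 CPM in DKO and 518 to 1347 CPM in WT. The part of these cell types in the members' differences was not tested.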

How the data were processed

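RNA-seq of mouse retina was analysed from a gene-level table of raw counts that the authors deposited, with 1 library per column. Trim Galore 0.3.7, TopHat2 2.0.13, the mm10 genome and HTSeq 0.6.1 are named in the submitters' processing notes, as are Cufflinks 2.2.1 and Cuffdiff. No source used here names the annotation or the strand setting. Columns give group and library but no replicate number. No library pair agreed within sampling noise.

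Counts were fitted in R 4.3.3 with edgeR 4.0.16 (filterByExpr with a minimum count of 10, TMM, robust quasi-likelihood, all 11 libraries, 1 mean per group), with Benjamini-Hochberg adjustment over all 13292 genes and a threshold of 0.05. Standard errors of edgeR fold changes were derived, as the absolute log2 fold change divided by the square root of the F statistic. The edgeR fit of DKO against WT was tested on simulated counts with known fold changes and no tissue differences. The other steps and comparisons were not tested in that way. Ratios used a pseudocount of 0.5 CPM, and likeness used log2 CPM with a prior count of 2 among genes of at least 5 CPM. DESeq2 1.42.0, other scaling factors, no filter, the compared groups alone, tissue scores as covariates and leaving out each library were alternatives. The pigment epithelium covariate and the fit without 3 lens-rich libraries were added after seeing the data. Exon lengths and overlaps came from GENCODE on GRCm38, and symbols were matched for 13211 of 13498 genes.

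Members and lists were chosen with earlier results of these data known. The naming rule took all 9 members, every called gene of each other list and up to 3 by p in the DKO and WT comparison, 2 genes most like each member, and overlapping genes. For the lists of other tissues and cell types, only the called genes are named, which departs from that rule. Some genes that the rule takes are not reported here.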

Additional observations from a re-analysis of the deposited data

Results flagged for a closer look

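Mab21l1 levels lay on opposite sides of the comparison libraries under loss of Six3 with and without Six6, and under loss of Six6 with and without Six3. Every Six3KO library lay below every WT library, whereas every DKO library lay above every Six6KO library, and likewise every Six6KO library lay below every WT library, whereas every DKO library lay above every Six3KO library. The difference between these effects, the same quantity for loss of Six3 and for loss of Six6, was 0.58 ± 0.18 on the log2 scale. It had an unadjusted p of 0.00907 and an adjusted p of 0.347 in the edgeR model, and so did not pass. Of all genes tested, 16.8% had every DKO library above every Six6KO library, and 13.4% had every DKO library above every Six3KO library. The shares with single-mutant libraries below every WT library were not counted. Six6KO had only 2 libraries, and its gap was small, 126 CPM in rh020 against 128 CPM in WT library rh016.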

How the results depend on the processing

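No paired analysis was possible because the columns carry no replicate number. The replicate block was therefore not run, and the fit to the compared groups alone was not run for the interaction. The log2 fold change of Mab21l2 in DKO against WT was 1.01 to 1.36 over 20 alternatives and passed in 19; leaving out 1 library gave 1.21 to 1.36. Its call was lost in 6 of 20 alternatives against Six3KO and in 10 of 20 against Six6KO. Calls absent from the main fit were gained in 1 of 20 for Mab21l1 and for Meis1 in DKO against Six3KO. In DKO against Six6KO they were gained in 1 of 20 for Pax6 and 2 of 20 for Meis1. The Mab21l2 interaction was called in 1 of 19. In DKO against WT, calls were gained in 8 of 20 for Sox3, 6 for Six3, 5 for Ccnd1, 3 each for Zic2 and Lmo1, and 1 each for Lmo2 and Lrba. With DESeq2, Meis1 passed in DKO against WT at 0.60, and the genes called numbered 773 in DKO, 18 in Six3KO and 2 in Six6KO against WT, 774 in DKO against Six3KO, 671 in DKO against Six6KO and 241 for the interaction, against 172, 1, 0, 78, 31 and 0 in edgeR. With the compared groups alone, 10 genes were called in Six6KO against WT and 682 in DKO against Six6KO.

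With the mesenchyme score as a covariate, estimates in DKO against WT turned to -0.041 for Rax, -0.040 for Lhx2, 0.78 for Meis2, -0.26 for Pax6os1 and 2.47 for Pax3, and Meis2 to 0.68 in DKO against Six3KO. The calls were 45 in DKO against Six3KO and 1 in DKO against Six6KO. With mesenchyme and lens scores they turned to -0.13 for Rax, -0.13 for Lhx2, 0.82 for Meis2, -0.38 for Pax6os1 and 11.47 for Pax3, and Meis2 to 0.82 in DKO against Six3KO. The calls were 400 in DKO against WT, 0 in DKO against Six3KO and 1 in DKO against Six6KO. With the pigment epithelium score Meis2 turned to 0.10 in DKO against WT, and the calls were 533 in DKO against WT, 389 in DKO against Six3KO and 108 in DKO against Six6KO. Leaving out the 3 lens-rich libraries left only rh006 in Six3KO and rh007 in Six6KO, and Meis2 turned to -0.016 in Six3KO against WT. DKO mesenchyme scores lay below those of all other libraries, so the fits with that score extend beyond the range of the other groups. The causes were not tested.

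Leaving out each library in turn gave 20 to 279 calls in DKO against WT, 1 to 2 calls in Six3KO against WT, 0 to 1 calls in Six6KO against WT, 16 to 93 calls in DKO against Six3KO, 1 to 77 calls in DKO against Six6KO and 0 to 3 calls for the interaction. It gave log2 estimates of -0.34 to 0.069 for Sox2 in DKO against WT, -0.13 to 0.10 for Nbea in DKO against WT, -0.13 to 0.22 for Pax6os1 in DKO against WT, -0.24 to 0.42 for Meis2 in Six3KO against WT, -0.18 to 0.24 for Mab21l2 in Six6KO against WT and -0.60 to 0.059 for Meis2 in DKO against Six3KO. The lowest counts, 20, 16 and 1 in the 3 DKO comparisons, came without DKO library rh010 (25, 21 and 1 without rh011), and the highest in DKO against WT, 279, without Six3KO library rh026. The number of libraries, 2 or 3 a group, limits all these tests.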
